A study of Mus musculus with 8 samples.

Results

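The collagen and stromal matrix genes of mouse pancreatic islets were followed across 4 groups of mice that differed in the insulin receptor substrate gene Irs2 and in sodium tungstate in the drinking water. The set held 56 of the 18193 genes with a probe set naming a single gene: all 42 genes whose symbol marks a collagen chain, and 14 named genes of matrix and stromal cells (Lum, Dcn, Bgn, Fn1, Sparc, Postn, Fbln1, Fbln2, Lox, Timp1, Mmp2, Thy1, Pdgfra and Pdgfrb). The genes were set by symbol and name, with earlier results of these data known. Where a gene had several probe sets, the brightest on average was read, and 40 of the 56 (28 collagens and 12 named genes) reached the level required for testing, a mean log2 intensity of 5.27.

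Collagens are secreted as triple helices of 3 chains, which either pack into fibrils (types I, III and V), form the sheet of the basement membrane (type IV) or join into beaded filaments (type VI). Fibroblasts, stellate cells and pericytes make most fibrillar collagen, together with the small proteoglycans decorin and lumican that bind collagen fibrils. In islets, endocrine cells lie against capillaries whose basement membrane carries collagen IV, and the interstitial collagens surround the islet and line its vessels.

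Islets came from male mice on a C57Bl/6 background, wild type or Irs2-/-, which entered treatment at 10 weeks of age and were 13 weeks old at its end. For 21 days the untreated groups drank distilled water, and the treated groups drank sodium tungstate in distilled water, given as 2 mg/ml in the series' design text and 2 mg/dl in the sample labels and therefore uncertain. Affymetrix arrays were run on 2 independent samples per group, 8 arrays in all. The labels do not say how many mice gave each sample, and p-values therefore reflect only how far these samples differed from each other. The loss of Irs2 is carried by the whole animal and is not restricted to islet cells.

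Irs2 itself read 7.61 to 7.91 (log2 intensity) in the wild-type arrays and 4.54 to 4.89 in the Irs2-/- arrays, without overlap. The islet hormones Ins2 (14.72 to 14.75) and Gcg (14.15 to 14.39) were high on every array, whereas Sst lay at 13.93 to 14.02 in wild type and 12.44 to 12.88 in Irs2-/-. Wild-type untreated sample 1 stood apart from its replicate in the genes of this set. It was higher for 28 of the 40 tested members, and for 60.4% of all tested genes. The gap was over 1 log2 unit in size for 12 members, against 1 such member in each of the other 3 groups. Over all 13369 tested genes the gap was that wide for 220 in untreated and 55 in treated wild type. In Irs2-/- it was that wide for 254 untreated and 196 treated. Wild-type untreated sample 1 also had the lowest mean level of 18 acinar (exocrine) markers, 8.56 against 9.92 to 11.95 on the other 7 arrays.

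The promoters of 4 members on which the results turn are shown first, as up to 250 bases 5′ of the RefSeq start on build GRCm38.p6, 5′ to 3′ on the gene's strand. Capitals mark the letters of 4 short promoter elements, each searched on both strands. TATAAA was used for the element named after those letters, GGGCGG for the Sp1 element, CCAAT for the element bound by NF-Y and TGANTCA for the AP-1 element. No matches overlapped in the windows shown. Sparc (chr11:55420081-55420330, minus strand) had the lowest adjusted p of the set, Col3a1 (chr1:45311288-45311537, plus strand) the widest genotype difference over 4 arrays against 4, Col1a2 (chr6:4505368-4505617, plus strand) codes for the partner chain of Col1a1 in collagen I, and Col6a3 (chr1:90844002-90844221, minus strand) was the member that fell.
Sparc: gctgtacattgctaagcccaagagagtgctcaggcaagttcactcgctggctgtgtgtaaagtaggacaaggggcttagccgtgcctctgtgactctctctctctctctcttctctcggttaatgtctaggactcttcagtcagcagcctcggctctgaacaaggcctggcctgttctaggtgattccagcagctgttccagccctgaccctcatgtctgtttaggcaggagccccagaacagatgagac
Col3a1: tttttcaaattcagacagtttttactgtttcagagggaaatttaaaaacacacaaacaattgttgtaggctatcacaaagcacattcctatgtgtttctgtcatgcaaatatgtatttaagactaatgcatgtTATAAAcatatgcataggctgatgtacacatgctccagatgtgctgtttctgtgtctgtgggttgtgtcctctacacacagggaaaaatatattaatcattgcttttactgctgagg
Col1a2: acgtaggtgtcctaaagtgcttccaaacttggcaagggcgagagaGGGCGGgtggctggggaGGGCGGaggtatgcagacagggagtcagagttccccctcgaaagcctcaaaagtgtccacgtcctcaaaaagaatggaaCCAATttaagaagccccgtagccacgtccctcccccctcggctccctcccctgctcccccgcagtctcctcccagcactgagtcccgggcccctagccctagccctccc
Col6a3: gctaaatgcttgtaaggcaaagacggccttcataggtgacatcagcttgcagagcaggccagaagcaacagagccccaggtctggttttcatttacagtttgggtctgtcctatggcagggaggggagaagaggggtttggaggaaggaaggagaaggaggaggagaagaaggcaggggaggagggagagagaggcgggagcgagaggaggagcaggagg
The Col3a1 window held TATAAA 117 bases before the start, the Col1a2 window held CCAAT at 109 bases and GGGCGG at 188 and 205 bases, and the windows of Sparc and Col6a3 held none of these letters. Promoters were found for 40 members, in 45 windows. GGGCGG occurred in 55.6% of the members' windows and in 32.7% of all 32851 windows, TATAAA in 13.3% and 12.4%, CCAAT in 31.1% and 33.8%, and TGANTCA in 2.22% and 6.75%. These matches describe the letters, and no binding was measured.

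Loss of Irs2 went with higher stromal matrix transcripts. With both treatments averaged, 4 Irs2-/- arrays against 4 wild-type arrays, 18 of the 40 tested members rose and 1 fell in the islets of Irs2-/- mice (limma, adjusted p under 0.05 after Benjamini-Hochberg adjustment over 13369 genes). That is 47.5% of the members, where 22.1% of all tested genes were called. The 18 that rose were 45% of the members against 10.9% of all genes, and the 1 that fell was 2.5% against 11.2%. The median difference was 0.55 log2 units over the members and -0.01 over all tested genes. Among 33 members whose mean was above the test level in each of the 4 groups, 17 rose and 1 fell. Without any level filter 20 of the 56 members rose and 1 fell, 37.5% against 16.7% of all genes. In whole islets, more cells of a type and more RNA per cell cannot be told apart.

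**Figure D1:**
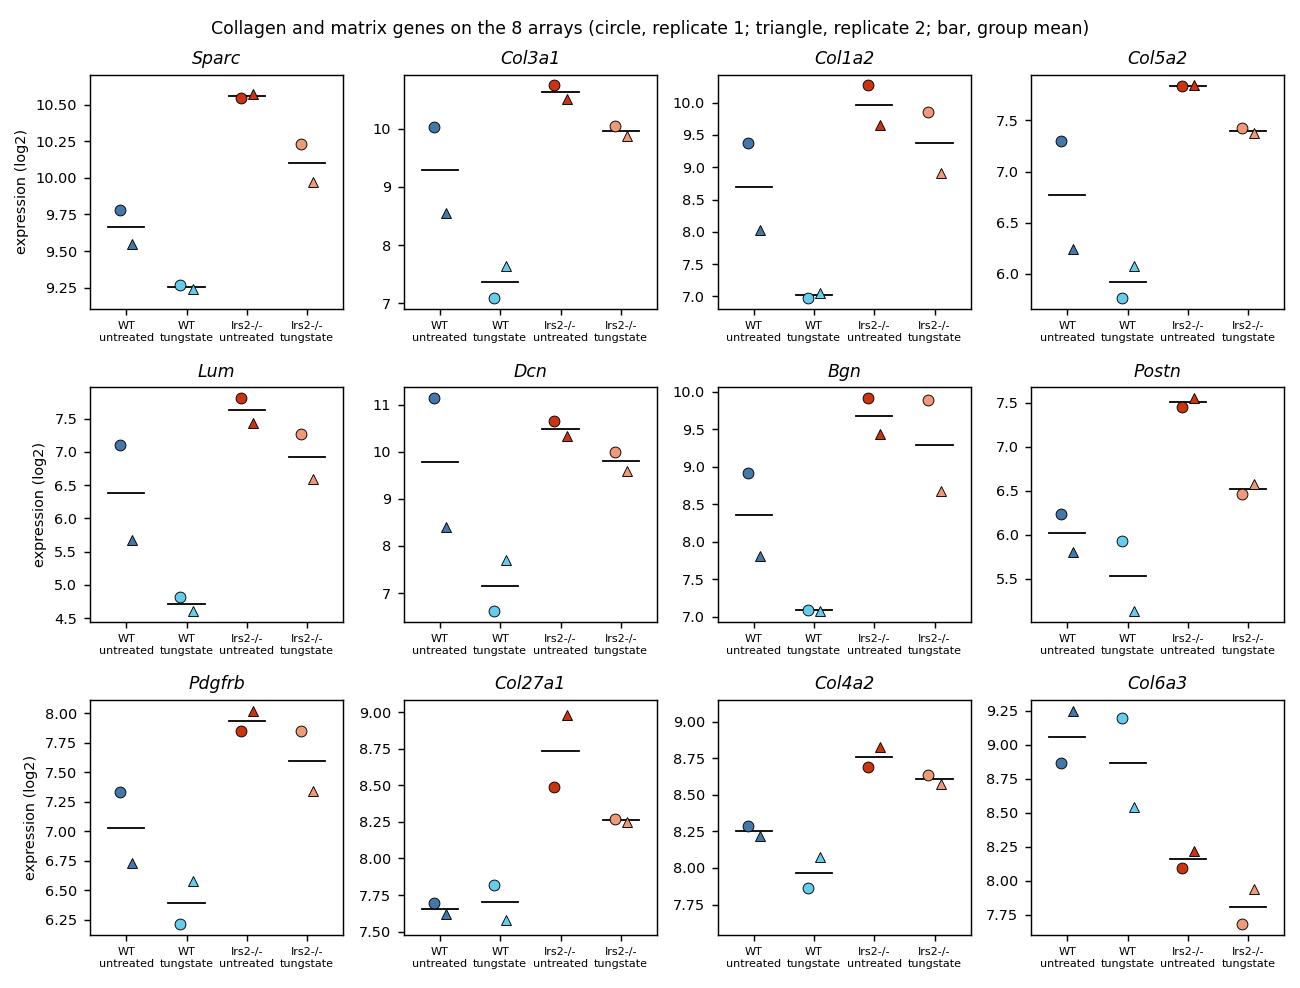
Log2 expression of 12 members on each of the 8 arrays by group, each panel on its own scale, with circles for sample 1, triangles for sample 2 and bars for group means. Irs2-/- arrays are the higher ones in 11 panels apart from wild-type untreated sample 1, which reaches or passes treated Irs2-/- arrays in Col3a1, Col1a2, Lum, Dcn and Bgn, and Col6a3 runs the other way.

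Of the 8 tested fibrillar chains, 5 rose. Col3a1, the single chain of collagen III, read 10.04 and 8.55 in untreated wild type, 7.08 and 7.63 in treated wild type, 10.75 and 10.51 in untreated Irs2-/-, and 10.05 and 9.88 in treated Irs2-/- islets. The genotypes overlapped only through wild-type untreated sample 1, which lay between the treated Irs2-/- arrays. Averaged over treatment the difference was 1.97 ± 0.30 (SE, 3.92-fold, limma adjusted p = 0.00454). Col1a2, the second chain of collagen I, read 9.38 and 8.02 in untreated wild type, 6.97 and 7.06 in treated wild type, 10.27 and 9.65 in untreated Irs2-/-, and 9.85 and 8.91 in treated Irs2-/- islets, a difference of 1.81 ± 0.32 (limma adjusted p = 0.00799). Its groups also overlapped only through wild-type untreated sample 1. Its partner Col1a1 read 5.32 to 5.97 in the 4 wild-type arrays and 6.03 to 6.45 in the 4 Irs2-/- arrays, without overlap, and rose by 0.70 ± 0.13 (limma adjusted p = 0.00962). Its other probe set gave 0.28 and was not called (limma adjusted p = 0.0938 over probe sets).

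Collagen V is a minor component of the same fibrils. Col5a2, which lies next to Col3a1 in the genome, read 5.76 to 7.30 in wild type and 7.38 to 7.84 in Irs2-/- and rose by 1.27 ± 0.21 (limma adjusted p = 0.00597). Col5a1 (0.37 ± 0.15, limma adjusted p = 0.117) and Col5a3 (0.33 ± 0.15, limma adjusted p = 0.158) did not pass. Of the 2 dimmer Col5a1 probe sets above the test level, 1 passed (0.91, limma adjusted p = 0.0379 over probe sets) and 1 did not (0.15), and whether the chains' changes differ was not tested. Col27a1, a fibrillar collagen known from cartilage, read 7.58 to 7.82 in wild type and 8.25 to 8.98 in Irs2-/- and rose by 0.82 ± 0.12 (limma adjusted p = 0.00438). Col11a2 had the smallest difference of the fibrillar chains, 0.04.

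Of the 3 small proteoglycans, 2 rose. Dcn, which codes for decorin, read 11.14 and 8.41 in untreated wild type, 6.62 and 7.69 in treated wild type, 10.65 and 10.34 in untreated Irs2-/-, and 9.99 and 9.60 in treated Irs2-/- islets. Wild-type untreated sample 1 was the highest of all 8 arrays, and the averaged difference of 1.68 ± 0.53 did not pass (limma adjusted p = 0.0582). Lum, the neighbouring gene for lumican, read 7.11 and 5.67, then 4.83 and 4.61 in the wild-type groups, and 7.81 and 7.44, then 7.27 and 6.59 in the Irs2-/- groups. It rose by 1.72 ± 0.30 (limma adjusted p = 0.00758), with the same wild-type array as the only overlap. Bgn (biglycan) read 7.07 to 8.91 in wild type and 8.67 to 9.92 in Irs2-/-, with a rise of 1.76 ± 0.31 (limma adjusted p = 0.00814).

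Among the glycoproteins, 4 of 5 rose. Sparc, a collagen-binding protein of remodelling matrix, read 9.78 and 9.55 in untreated wild type, 9.27 and 9.24 in treated wild type, 10.54 and 10.57 in untreated Irs2-/-, and 10.23 and 9.97 in treated Irs2-/- islets. Every Irs2-/- array exceeded every wild-type array, and the rise was 0.87 ± 0.09 (1.83-fold, limma adjusted p = 0.00162). Another Sparc probe set gave 0.82 and the dimmest of its 3 gave -0.14, so the probe sets did not all show the rise. Postn (periostin, a secreted matrix protein) read 5.13 to 6.24 in wild type and 6.46 to 7.55 in Irs2-/-, also without overlap, and rose by 1.24 ± 0.18 (limma adjusted p = 0.00397). Fn1 (fibronectin) rose by 1.31 ± 0.35 (limma adjusted p = 0.0334) and Fbln2 by 1.05 ± 0.27 (limma adjusted p = 0.0302), both with overlapping arrays. Both calls were lost in limma with a trended, robust spread (adjusted p = 0.0948 and 0.0589). Fn1 also lost its call without either treated wild-type sample, untreated Irs2-/- sample 1 or treated Irs2-/- sample 2 (0.0773 to 0.11), and Fbln2 without wild-type untreated sample 2, either treated wild-type sample, either untreated Irs2-/- sample or treated Irs2-/- sample 1 (0.0596 to 0.0961). Fbln1 differed by 0.18 ± 0.11 and was not called.

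Stromal cell surface genes and matrix enzymes followed in part. Pdgfrb, the PDGF receptor of pericytes, read 7.33 and 6.73 in untreated wild type, 6.21 and 6.57 in treated wild type, 7.85 and 8.02 in untreated Irs2-/-, and 7.85 and 7.34 in treated Irs2-/- islets. The genotypes did not overlap, by a margin of hundredths between the closest arrays, and the rise was 1.05 ± 0.17 (limma adjusted p = 0.00595). The other Pdgfrb probe set gave a smaller rise of 0.33 (limma adjusted p = 0.0488 over probe sets). Within untreated islets that probe set also gave 0.33 and was not called (limma adjusted p = 0.14 over probe sets). Thy1, a fibroblast surface protein that T cells also carry in the mouse, rose by 0.99 ± 0.26 (limma adjusted p = 0.0316), a call lost with a trended, robust spread (adjusted p = 0.0575). It was also lost without wild-type untreated sample 2, either treated wild-type sample, untreated Irs2-/- sample 1 or treated Irs2-/- sample 1 (limma adjusted p from 0.0737 to 0.102). Pdgfra, a receptor of fibroblasts, differed by 1.11 ± 0.40 (limma adjusted p = 0.0836) and Mmp2, a gelatinase, by 0.58 ± 0.21 (limma adjusted p = 0.0811), and neither passed.

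**Figure D2:**
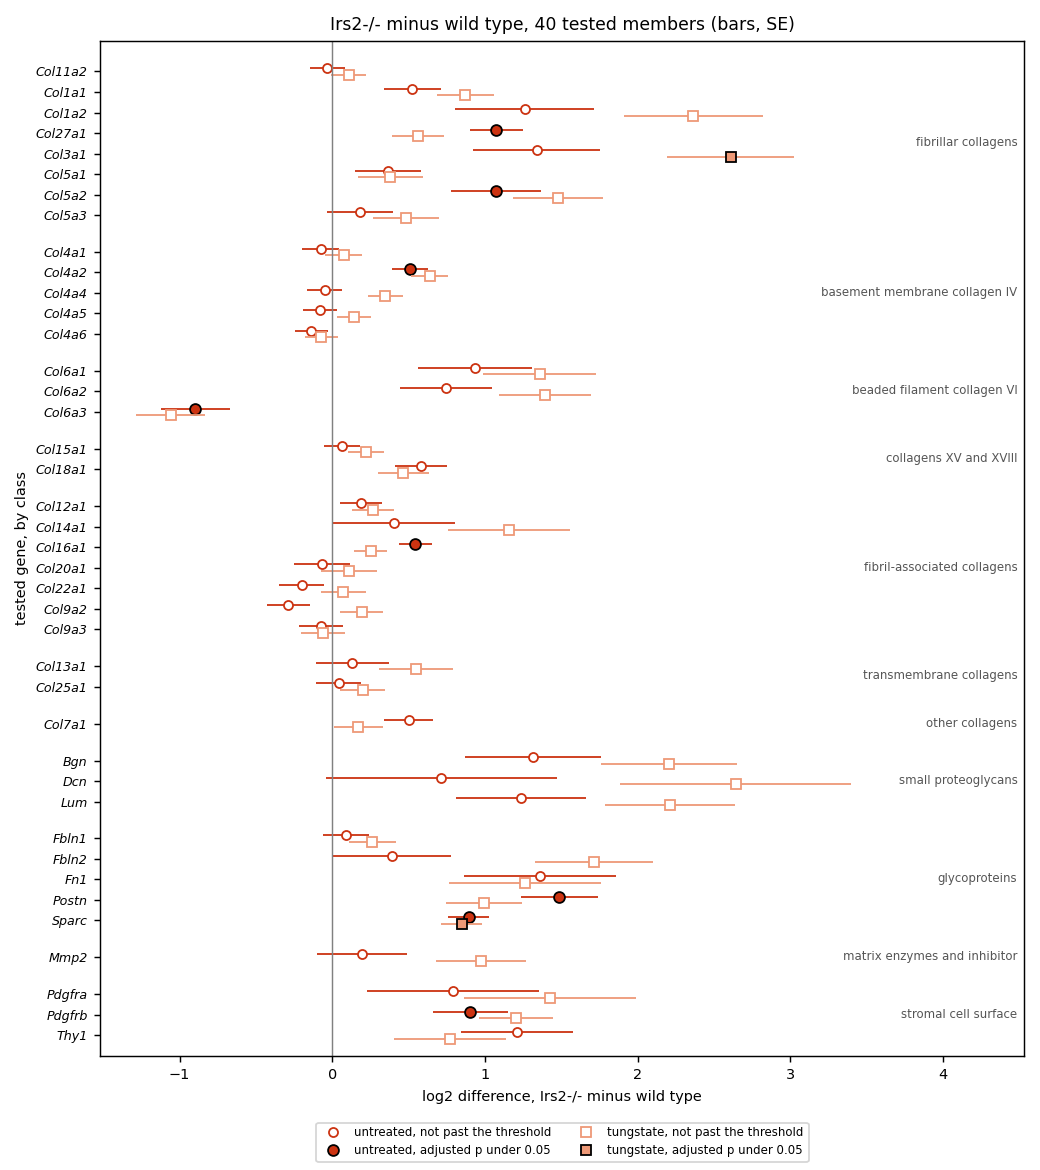
Log2 difference, Irs2-/- minus wild type, for the 40 tested members in untreated (circles) and tungstate-treated (squares) islets, with SE bars and filled marks for adjusted p under 0.05. Points lie right of 0 for 30 members in untreated islets (75%, against 48.5% of all tested genes) and 37 in treated islets (92.5%, against 47.6%), and Col6a3 lies left of 0 in both.

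Of the 3 tested chains of collagen VI, 2 rose and 1 fell. Col6a1 read 5.25 to 6.93 in wild type and 6.34 to 7.51 in Irs2-/- (1.15 ± 0.26, limma adjusted p = 0.0194), and its neighbour Col6a2 read 6.39 to 8.03 and 7.67 to 8.37 (1.07 ± 0.21, limma adjusted p = 0.0117). Without treated wild-type sample 1 the limma adjusted p was 0.0766 for Col6a1 and 0.0509 for Col6a2, and Col6a1 also lost its call without treated wild-type sample 2, untreated Irs2-/- sample 1 or treated Irs2-/- sample 1 (0.0506 to 0.0573). Col6a3, the long chain that joins them in the filament, read 8.86 and 9.25 in untreated wild type, 9.19 and 8.54 in treated wild type, 8.10 and 8.22 in untreated Irs2-/-, and 7.68 and 7.94 in treated Irs2-/- islets. Every Irs2-/- array was below every wild-type array, and Col6a3 fell by 0.98 on the log2 scale (SE 0.16, limma adjusted p = 0.00598). Col6a3 had 1 probe set, so no second probe set bears on its direction.

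Of the 5 tested chains of collagen IV, the network former of basement membranes, 1 rose. Col4a1 read 9.17 to 9.62 in wild type and 9.30 to 9.49 in Irs2-/-, and differed by -0.00 ± 0.09 (95% interval -0.20 to 0.20, limma adjusted p = 0.995). The genotypes overlapped over both treatments, although in untreated islets both wild-type arrays (9.62 and 9.50) were above both Irs2-/- arrays (9.49 and 9.48). Col4a2, transcribed from the neighbouring start, read 7.87 to 8.29 in wild type and 8.57 to 8.83 in Irs2-/- without overlap, and rose by 0.57 ± 0.09 (limma adjusted p = 0.00441). Whether the changes of the 2 chains differ was not tested. The other Col4a1 probe set differed by 0.22 between genotypes. Col4a4, Col4a5 and Col4a6 stayed within 0.15 log2 units of no difference and were not called. Of the vessel-wall collagens XV and XVIII, Col18a1, the source of endostatin, rose by 0.52 ± 0.12 (limma adjusted p = 0.0194), and Col15a1 differed by 0.14 ± 0.08. The other Col18a1 probe set gave 0.38 and was not called (limma adjusted p = 0.0543 over probe sets). The Col18a1 call was lost with the acinar marker level as a covariate (limma adjusted p = 0.0803) and without wild-type untreated sample 2, treated wild-type sample 1 or treated Irs2-/- sample 1 (0.0524 to 0.0805).

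**Figure D3:**
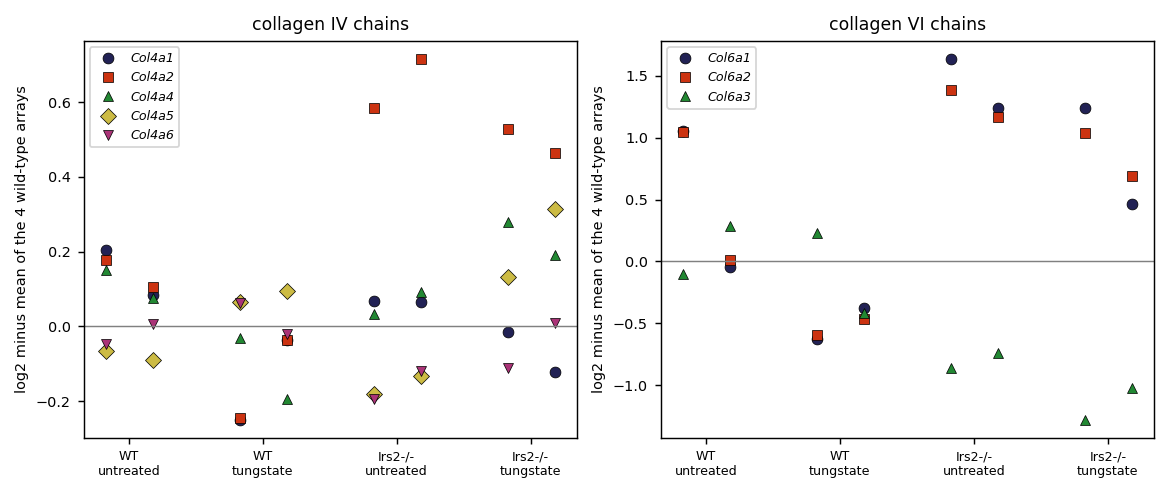
Log2 expression of the tested collagen IV and VI chains on each array, minus that gene's mean over the 4 wild-type arrays, by group. Col4a1 overlaps between genotypes and Col4a2 does not, while in Irs2-/- islets every Col6a1 and Col6a2 point lies above 0 and every Col6a3 point below it.

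Of the remaining collagens, Col16a1, a fibril-associated chain, read 6.72 to 6.89 in wild type and 7.08 to 7.33 in Irs2-/- and rose by 0.40 ± 0.08 (limma adjusted p = 0.0107). That call was lost with the acinar covariate (limma adjusted p = 0.061) and without sample 1 of both untreated groups (0.0541). Col14a1 differed by 0.78 ± 0.28 without passing. The other 5 tested fibril-associated chains differed by -0.07 to 0.23 and were not called, nor were the transmembrane collagens Col13a1 and Col25a1 or Col7a1. Across the 40 tested members the arrays of the genotypes did not overlap for 10 that were higher in Irs2-/- (9.55% of all tested genes did so) and for 1 that was lower (14.4% of all). Of the 16 members under the test level, 4 were higher in every Irs2-/- array than in every wild-type array (Col4a3, Col8a2, Lox and Timp1) and 0 were lower, where 5.47% and 1.99% of all genes under that level were. Timp1, an inhibitor of matrix metalloproteinases, read 4.93 to 5.08 in wild type and 5.27 to 5.58 in Irs2-/-, and Lox, which cross-links collagen, 4.81 to 4.88 and 4.96 to 5.09.

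Within untreated islets 8 members were called, 20% against 16.8% of all tested genes, a share close to the background. Sparc (0.89 ± 0.13, limma adjusted p = 0.00702), Col27a1 (1.07 ± 0.17, limma adjusted p = 0.00823), Postn (1.49 ± 0.25, limma adjusted p = 0.00994), Col16a1 (0.54 ± 0.11), Col4a2 (0.51 ± 0.12), Pdgfrb (0.90 ± 0.24) and Col5a2 (1.07 ± 0.30) rose, and Col6a3 fell (-0.90 ± 0.23). By direction, 17.5% of the members rose where 8.27% of all genes did, and 2.5% fell where 8.52% did. The median difference was 0.45 against -0.01. Without wild-type untreated sample 2 the count was 2, without either Irs2-/- untreated sample 4, and without wild-type untreated sample 1 it was 12. With the acinar marker level as a covariate it was 20. The share of all genes called is not given beside these alternative counts, so they are not read against a background. Postn lost its call without wild-type untreated sample 2 (limma adjusted p = 0.0575), and Col16a1, Col4a2, Pdgfrb, Col5a2 and Col6a3 each lost theirs without that sample and without untreated Irs2-/- sample 2, with limma adjusted p from 0.0604 to 0.196. Calls also ended without wild-type untreated sample 1 (Col16a1, Col4a2 and Col6a3, limma adjusted p from 0.0594 to 0.0921), without untreated Irs2-/- sample 1 (Col4a2, Pdgfrb, Col5a2 and Col6a3, 0.0684 to 0.136), without either treated wild-type sample (Pdgfrb 0.0656, Col5a2 0.0744) and without either treated Irs2-/- sample (Col5a2 0.0534). Without sample 1 of both untreated groups Postn, Col16a1, Col4a2, Pdgfrb and Col6a3 lost theirs (0.0613 to 0.157). The acinar covariate ended the calls of Col16a1 (0.0539) and Col4a2 (0.074), the trended, robust spread that of Col5a2 (0.0542), and a fit of only the arrays compared those of Col4a2, Pdgfrb and Col5a2 (0.0539 to 0.0925). Col27a1 kept its call in every alternative that was run for it, and Sparc kept it in all but the one without sample 1 of both untreated groups (adjusted p = 0.0538).

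Within treated islets 2 members were called, 5% against 1.02% of all genes. They were Col3a1 (2.61 ± 0.42, 6.10-fold, limma adjusted p = 0.0398) and Sparc (0.85 ± 0.13, limma adjusted p = 0.0398). The arrays of the genotypes did not overlap for 32 members higher in treated Irs2-/- islets (22.4% of all tested genes were) and for 1 lower (25.7% of all). Dcn differed by 2.64 ± 0.76 and Col1a2 by 2.36 ± 0.45 without passing (limma adjusted p = 0.138 and 0.0595). The count of 2 depends on single arrays: it was 0 without either treated wild-type sample, either untreated Irs2-/- sample or treated Irs2-/- sample 1, 8 without treated Irs2-/- sample 2, and 10 without either untreated wild-type sample. It was 6 after quantile normalization, 0 with all probe sets of a gene averaged, and 16 with the acinar covariate. Here too the share of all genes called is not given beside the alternative counts, and they are not read against a background.

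Tungstate had no called effect on the set in either genotype. In Irs2-/- islets 0 of 40 members passed in limma, where 0.494% of all tested genes did, and 5 had an unadjusted p under 0.05 (13.3% of all genes had). The median difference was -0.13, against -0.01 over all genes. Postn had the smallest adjusted p (-0.98 ± 0.25, 95% interval -1.57 to -0.40, limma adjusted p = 0.16), with 7.45 and 7.55 untreated and 6.46 and 6.58 treated. Sparc differed by -0.46 ± 0.13 (limma adjusted p = 0.208). With the acinar marker level as a covariate 1 member was called, a count given without the share of all genes called in that fit.

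In wild-type islets 0 of 40 members passed in limma, where 0% of all genes did, and 13 had an unadjusted p under 0.05 (2.72% of all genes had). Treated values were the higher ones for 10 members, 25% against 42.4% of all genes, and the median difference was -0.28 against -0.03 over all genes. Dcn differed by -2.62 ± 0.76 (95% interval -4.37 to -0.88), Col3a1 by -1.94 ± 0.42, Col1a2 by -1.68 ± 0.45 and Lum by -1.67 ± 0.43, all with limma adjusted p = 1. These differences include wild-type untreated sample 1, whose Dcn was 2.73 log2 units above its replicate. Wild-type untreated sample 2 also lay above both treated wild-type arrays for Dcn (8.41 against 6.62 and 7.69), Col3a1, Col1a2 and Lum. With acinar marker level as a covariate 4 members fell, and without wild-type untreated sample 2, which leaves that high array as the only untreated control, 2 did.

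**Figure D4:**
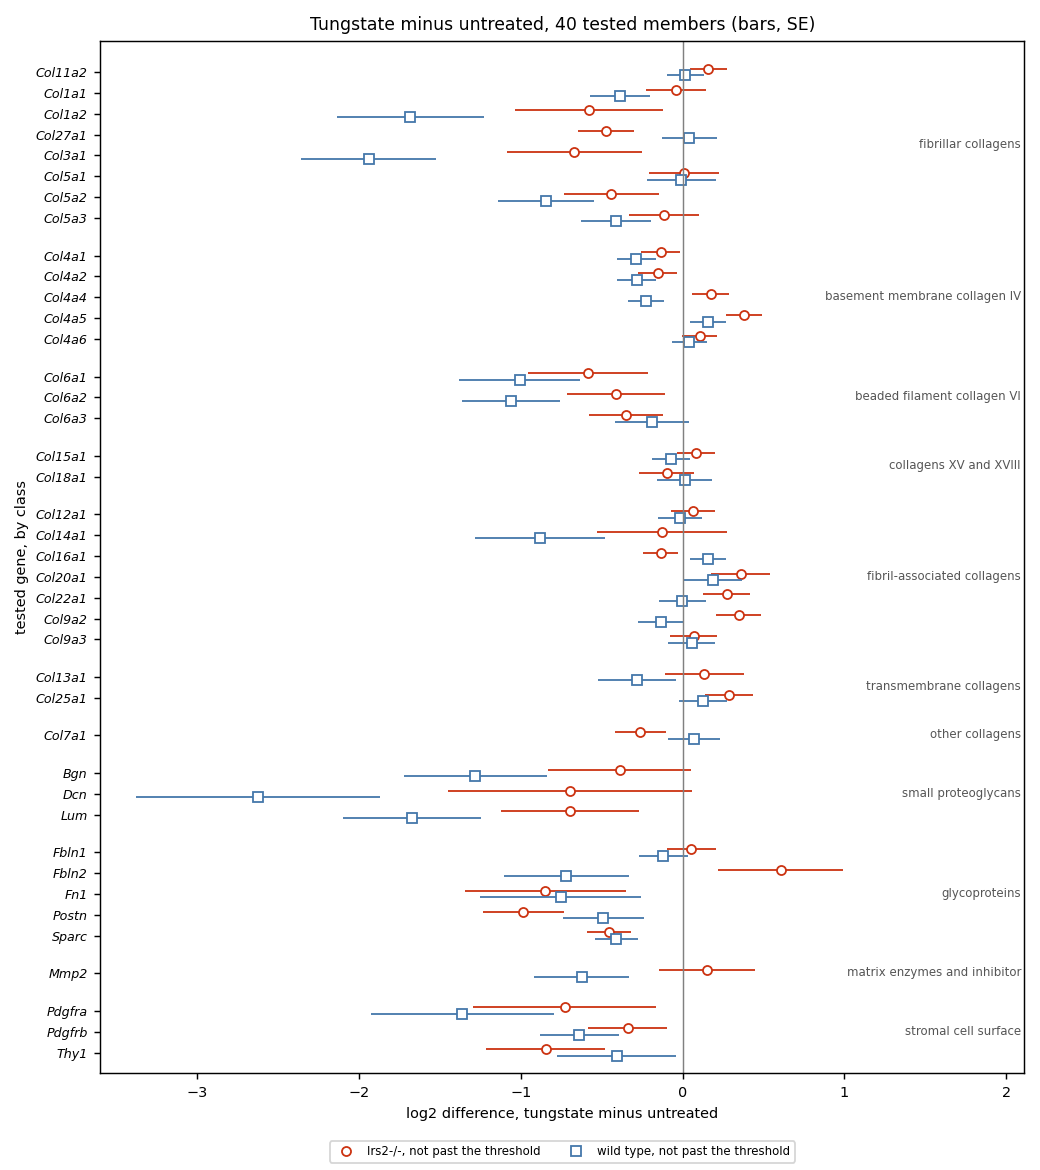
Log2 difference, tungstate minus untreated, for the 40 tested members in Irs2-/- (circles) and wild-type (squares) islets, with SE bars and open marks throughout because none passed. Values lie above 0 for 16 members in Irs2-/- (40%, against 48% of all tested genes) and 10 in wild type.

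The interaction, whether the tungstate difference itself differed between genotypes, was called for 0 members in limma, where 0.0224% of all genes were, and 3 had an unadjusted p under 0.05 (6.45% of all genes had). Fbln2, a vessel and fibre glycoprotein, differed by 0.61 ± 0.39 with tungstate in Irs2-/- and by -0.72 ± 0.39 in wild type, and the difference between these of 1.32 ± 0.55 did not pass (limma adjusted p = 0.767). An F test of any difference among the 4 groups called 15 members, 37.5% against 11% of all genes. That count was 2 and 3 without treated wild-type sample 1 or 2, 3 and 7 without untreated Irs2-/- sample 1 or 2, and 9 without sample 1 of both untreated groups.

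Genes of the machinery around the collagens were counted from lists written with earlier results of these data known. With treatments averaged, 10.9% of all tested genes rose and 11.2% fell, and the lists are read against those shares. Of 21 tested collagen modification genes 6 rose (28.6%) and 2 fell (9.52%). The prolyl hydroxylase genes P4ha2 and P3h1 rose by 0.76 ± 0.16 and 0.48 ± 0.10, P3h4 by 0.59 ± 0.10, and Ppib, a collagen-folding isomerase, by 0.67 ± 0.15. The 2 that fell, named after their values were seen, were Crtap (-0.29 ± 0.08, limma adjusted p = 0.0342), the partner of P3h1 and Ppib in the prolyl 3-hydroxylation complex, and Sec23a (-0.28 ± 0.08), a coat protein of vesicles leaving the endoplasmic reticulum. The list's median was 0.24. Of 17 matrix degradation genes 8 rose (47.1%) and 0 fell (median 0.33), with the inhibitors Timp2 (1.03 ± 0.20) and Timp3 (0.40 ± 0.09), the protease Mmp9 (0.34 ± 0.08) and the plasminogen activator Plat (0.61 ± 0.15).

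Of 21 TGF-beta and PDGF pathway genes 6 rose (28.6%) and 2 fell (9.52%). The TGF-beta-induced matrix protein Tgfbi rose by 1.32 ± 0.19, the co-receptor Tgfbr3 by 0.70 ± 0.15 and the ligand Tgfb3 by 1.05 ± 0.25, while the receptor Tgfbr1 fell by 0.55 and the ligand Pdgfa, named after its value was seen, by 0.38. Of 8 collagen receptors 3 rose (37.5%), Cd36 by 1.39 ± 0.22, Cd44 by 0.68 ± 0.13 and Itga1 by 0.58 ± 0.13, and Ddr1 fell by 0.30. Of 17 elastic fibre and small matrix genes 4 rose (23.5%), among them Emilin1 (0.91 ± 0.18) and Eln (0.52 ± 0.11), and 0 fell. Of 14 basement membrane glycoproteins 1 rose, Lama3 (0.41 ± 0.10), a share of 7.14% that is under the background. All named genes in these 2 paragraphs passed limma's adjusted threshold of 0.05.

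Markers of several cell types moved with the collagens between genotypes, again beside 10.9% of all tested genes rising and 11.2% falling. Fibroblast and stellate cell markers outside the set had a mean level of 7.12 to 8.69 in the wild-type arrays and 8.04 to 8.83 in the Irs2-/- arrays, and 3 of 9 tested rose (33.3%). Their highest wild-type value was again untreated sample 1. Pericyte and smooth muscle markers lay at 6.69 to 6.96 and 7.12 to 7.55, and 5 of 11 rose (45.5%), led by the potassium channel genes Kcnj8 (1.03 ± 0.11) and Abcc9 (1.38 ± 0.17). Endothelial markers lay at 7.70 to 7.89 and 8.22 to 8.57, with 9 of 13 rising (69.2%). Duct markers lay at 8.05 to 8.17 and 8.32 to 8.82, with 7 of 8 rising (87.5%). The risen duct markers were unlike in level. In wild type Krt7, Krt8, Krt18 and Epcam read 10.33 to 11.42, and Krt19, Car2 and Muc1 read 5.01 to 5.78. Which cells carried them was not tested.

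Acinar markers lay at 8.56 to 11.49 and 10.83 to 11.95. With treatments averaged all 18 tested were higher in Irs2-/- islets, with a median difference of 1.40 log2 units. Only 1 of the 18 passed the threshold, a share of 5.56% that is under the background. The 2 untreated wild-type samples alone spanned 8.56 to 11.49. Beta cell markers lay at 11.63 to 11.70 and 10.75 to 11.39, with 7 of 12 falling (58.3%) and 1 rising. Lymphocyte markers, beside which Thy1 is read, lay at 5.39 to 6.73 and 5.96 to 8.18, with 3 of 10 rising (30%). Also rising were 2 of 6 Schwann cell (33.3%) and 2 of 5 mesothelial and fat cell markers (40%). Those 2 of 5 were Fabp4 and Krt19, and Krt19 is also counted among the duct markers that rose. Macrophage markers lay at 7.33 to 7.65 in wild type and 7.71 to 9.04 in Irs2-/-, and all 13 tested rose. In Irs2-/- islets 7 of these 13 fell with tungstate, where 0.494% of all tested genes were called in either direction. Of the 40 collagen and matrix genes 0 were called, which is near that share, and the difference between the lists was not tested. The part that any of these cell types had in the collagen values was not tested.

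**Figure D5:**
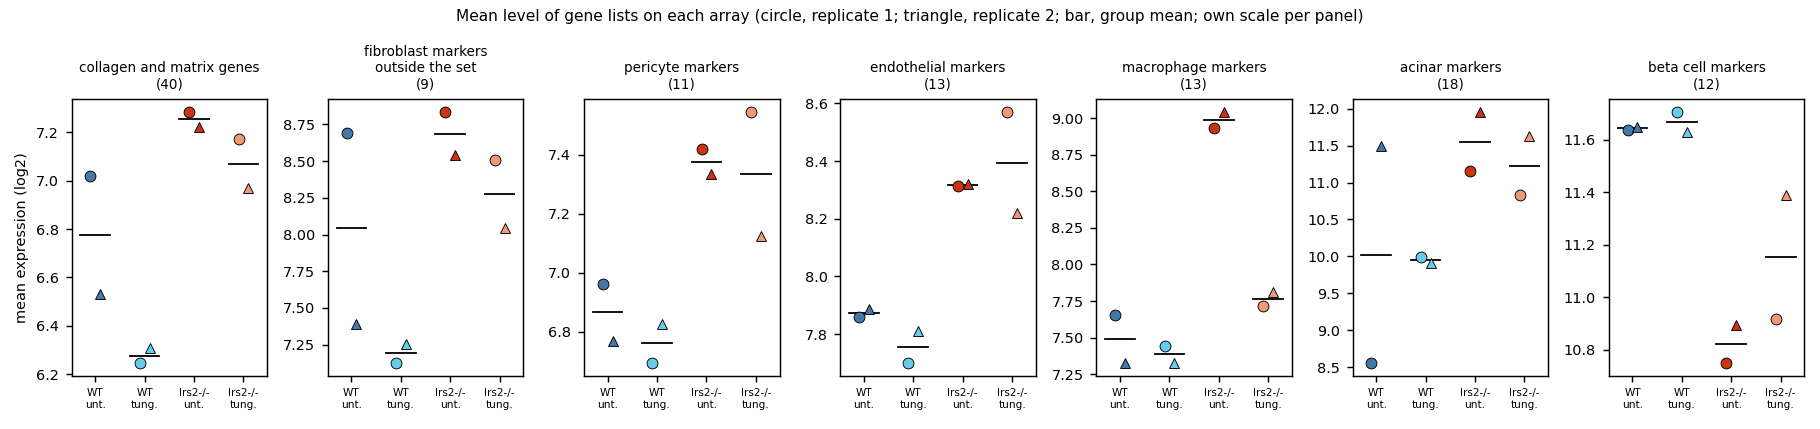
Mean log2 expression per array of the 40 tested collagen and matrix genes and of 6 marker lists, by group, each panel on its own scale, with circles for sample 1, triangles for sample 2 and bars for group means. The fibroblast list is high in wild-type untreated sample 1 and in the Irs2-/- arrays, and the macrophage list is lower in treated than in untreated Irs2-/- islets.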

How the data were processed

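RNA of 8 islet samples was measured on Affymetrix arrays. The deposited values are log2 intensities per probe set, which the authors made with RMA in the affy package of R 2.7.0, per the submitters' processing notes. They were used as deposited. Of 45037 probe sets besides controls, 34945 name 1 gene in the platform annotation, 932 several and 9160 none. The 56 members were matched to RefSeq by gene number. Genes with a mean under the 40th percentile of all probe sets were not tested, which left 13369. A limma 3.58.1 model (R 4.3.3) with 1 mean per group was fitted over the 8 arrays and tested on simulated data, with 4 residual degrees of freedom. With 2 arrays per group, the number of arrays limits precision.

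The members and lists were chosen with earlier results of these data known. Values are given for the 14 named genes, for chains of collagens I, III, IV, V, VI, XV and XVIII, and for any other member past the threshold. Further members were named after their values were seen. Lists name up to 4 genes by smallest p, and Crtap, Sec23a, Pdgfa and the named duct markers were added after their values were seen. Alternatives covered scaling, filter, probe sets, spread model, arrays and the replicate number.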

Additional observations from a re-analysis of the deposited data

How the results depend on the processing

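No called difference reversed direction under any alternative run. For members called between genotypes averaged over treatment, every alternative stayed within 1.5 times the 19, and leaving out 1 array gave 13 to 24. In untreated islets (8) leaving out 1 array gave 2 to 12, and the count was 20 with the acinar marker level as a covariate, 17 at an adjusted p under 0.1, 5 from only the arrays compared, and 4 without sample 1 of both untreated groups, an alternative chosen after seeing the data. In treated islets (2) the range was 0 to 10, and the count was 6 after quantile normalization, 0 when all probe sets of a gene were averaged, 16 with the acinar covariate, 12 at an adjusted p under 0.1, 6 from only the arrays compared, and 6 without sample 1 of both untreated groups. For tungstate the acinar covariate gave 1 in Irs2-/- and 4 in wild type, where leaving out 1 array gave 0 to 2. The interaction gave 0 throughout. The F test's 15 ranged from 2 to 18 without 1 array, and was 9 without sample 1 of both untreated groups. Fewer samples lower the power of the leave-one-out fits, and the cause of the other shifts was not tested. Apart from the fit without a level filter, the alternative counts here and above stand without the share of all genes called. Whether the calls over all genes moved with them is not shown, so they are not read against a background.

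The replicate numbers were not taken to pair the samples, because not every correlation of same-numbered deviations was over 0.1: they ran from -0.07 to 0.42 over 13369 genes, with 3 of 6 pairs of groups over 0.1 (those among untreated wild type, treated wild type and untreated Irs2-/-), so a shared factor behind the numbers was not settled. With the replicate block the counts were 12 in untreated islets, 5 in treated islets, 22 averaged and 16 by the F test, and 0 for tungstate in either genotype and for the interaction. Arrays give no counts, and 2 arrays per group limit the precision.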
